A study of Bos taurus with 10 samples.

Results

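The genes that bovine heart and skeletal muscle share were sought by setting the arrays of these striated muscles against the arrays of brain, kidney, liver, lung and spleen. The comparison used 7 of the 10 arrays of the series, 2 on the striated side and 5 on the other. The arrays were chosen by their titles and not by any measured value. Each was hybridised with total RNA of 1 bovine tissue, and the series title calls these tissues adult. The labels give no breed, sex or number of animals, and no treatment or altered gene for any array. The other 3 arrays, which carried pooled RNA from IVF embryos, were normalised with the rest but were left out of the main test. They entered only an alternative fit, as a group of their own. The array was designed for human genes, so each bovine transcript was read by probe sets (groups of short probes for 1 human transcript), and genes carry the human symbols of those probe sets.

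Striated muscle is built from repeated contractile units, the sarcomeres, in which myosin thick filaments pull on actin thin filaments between anchoring Z discs. Calcium released from the sarcoplasmic reticulum binds troponin on the thin filament and starts contraction, and calcium pumps end it. Heart and slow skeletal fibres share several sarcomere proteins, whereas fast skeletal fibres and cardiac muscle also use forms of their own. The force is paid for with ATP from phosphocreatine, glycolysis and, above all in the heart, from fatty acid oxidation and the respiratory chain.

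Among genes with a probe set of their own, the 3 largest differences were those of the sarcomere genes MYH7, TNNC1 and TTN. Of 7074 probe sets tested, 99 (1.4%) were higher in heart and muscle and 15 (0.212%) were lower at a limma adjusted p under 0.05. With each gene read by its brightest tested probe set, 72 of 4947 genes (1.46%) were higher and 9 (0.182%) were lower. The log2 differences of the higher genes ran from 1.06 to 5.18 with a median of 2.68. In all 99 and all 15 probe sets the 2 striated arrays lay outside the range of the other 5. Differences are on the scale log2(normalised intensity + 72.18), where 1 is a 2-fold change in the sum. On that scale the change of a dim probe set is understated. The replicates of each side are different tissues with 1 array each, so the p-values measure the spread between tissues, and the number of arrays limits the precision. At an unadjusted p under 0.05, limma gave 617 higher and 385 lower probe sets. Without the heart array 1 probe set was higher and 0 lower, and without the muscle array 0 were called. With the same 7074 probe sets tested, 43 were higher without heart and 55 without muscle. With the spleen array left out and the filter applied anew, 6704 were tested and 60 were higher. Lower calls were 3 without kidney, 4 without lung, 4 without spleen and 23 without brain, of which 2, 3, 2 and 7 were among the 15. With no offset before the log, 6 were higher and 2 lower, and 37 of the 41 genes named by rule lost their call. With the embryo arrays in the fit as a group of their own, 264 were higher and 78 lower. In whole tissue, fewer cells of a type and less RNA per cell cannot be told apart.

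A probe set was tested where it exceeded its array's median on at least 2 of the 7 arrays. The striated arrays alone can meet this, and 52 of the 72 higher genes passed through them with no other tissue above its median, so such genes had to differ. Of 4947 tested genes 161 passed that way. The filter also leaves out genes bright in heart alone or in muscle alone, so the gene groups below are also counted over all 6732 genes with values, 1785 of them not tested. Over these, both striated arrays lay above all 5 others for 702 genes (10.4%) and below all 5 for 597 (8.87%). The list counts below are to be read against these shares, and counts of higher genes against 1.46% of all tested genes. Nothing is read from a count of higher genes that passed through the striated arrays alone. A gene can lie above all 5 where 1 of the striated arrays is itself dim. The median log2 difference over all genes with values was -0.06. When heart and muscle were each set against the other 5 in a fit with 3 groups, 19 of 4947 genes (0.384%) were higher in both. These were TNNC1, TPM1, MYH7, MYH6, MYL2, MYL5, TTN, TCAP, PLN, CKMT2, ENO3, ANK1, LYN, FGR, ITGB3, MAP3K5, PDE3B, AP4S1 and C1orf174. Heart and muscle each rest on 1 array in that fit and were assumed to vary like the other tissues. Their p-values therefore rest on the spread of those tissues alone. The count was 11 without kidney and 9 without spleen, 0 with no offset and 6 with the filter at the 75th percentile. It was 36 with an offset 4 times larger, and 42 with no filter, with plain eBayes or with the embryo group.

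The arrays matched their labels as striated muscle. TNNC1, ACTA1 and CKM, the markers taken for striated muscle, were each higher in both arrays than in every other tissue. They read at most 22.02 in the other tissues and were tested through the striated arrays alone. That they passed the test therefore adds nothing to this. The Spearman correlation of heart with muscle was 0.648 over the tested probe sets, against 0.263 to 0.442 for either of them with the other tissues. Only lung and spleen correlated more closely among the adult pairs, at 0.713. Skeletal muscle is not named in the title of the muscle array, but several genes of fast skeletal fibres, among them TNNC2, MYL11 and MYBPC2, read at least 982 there and at most 20.2 on each other adult array.

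TNNC1 encodes troponin C of slow and cardiac muscle, the calcium sensor of the thin filament. It read 3133 in heart and 1998 in muscle, against 0.50 in brain, 3.67 in kidney, 0.33 in liver, 1.02 in lung and 3.32 in spleen. The striated arrays stood far above the rest, and the log2 difference was 5.12 ± 0.25 (SE, limma adjusted p = 5.91e-05). TPM1, a tropomyosin that lies along actin, read 1638 in heart and 1425 in muscle, against 2.93 in brain, 19.4 in kidney, 2.06 in liver, 35.9 in lung and 39.4 in spleen. Its log2 difference was 4.14 ± 0.26 (limma adjusted p = 0.000168), with no overlap between the sides. A second TPM1 probe set gave 3.97 and was also called, whereas another gave -0.78 with 157 in heart, 144 in muscle and 159.7 to 434 elsewhere. ACTA1, the skeletal alpha-actin, read 422 in heart and 1238 in muscle, against 5.05 in brain, 8.54 in kidney, 7.91 in liver, 22.02 in lung and 12.8 in spleen. Muscle was thus the brighter of the striated pair, and the log2 difference was 3.27 ± 0.43 (limma adjusted p = 0.00729). Actins are closely alike in sequence, and the share of other actin transcripts in this reading was not tested.

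The thin filament list had 14 genes with values. Of these, 6 were tested and 3 were higher (TNNC1, TPM1, ACTA1), against 1.46% of all tested genes. All 3 were tested through the striated arrays alone, so nothing is read from that count. Over all 14, both striated arrays lay above the 5 others for 7 genes and below them for 0. The shares of all genes were 10.4% and 8.87%, and the median log2 difference of the list was 2.08. The 7 included untested genes that were dim in 1 striated array. TNNC2, TNNI2 and TNNT1 read 7.01, 10.4 and 28.3 in heart, against at most 5.25, 4.42 and 1.87 in the 5 other tissues. TNNI3 read 23.6 in muscle, against at most 9.59. The genes that overlapped the other tissues included NEBL, a nebulin relative. Its brightest probe set read 320.3 in heart, 236 in muscle and 185 to 391 in the other tissues. Further NEBL probe sets were bright in heart alone, with 559 and 437 in heart and 30.2 and 4.57 in muscle. They read at most 210 and 152 in the other tissues. The brightest probe set of TMOD1, which caps the pointed end of actin, read 269 in heart and 228 in muscle within a range of 159 to 512.

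**Figure D1:**
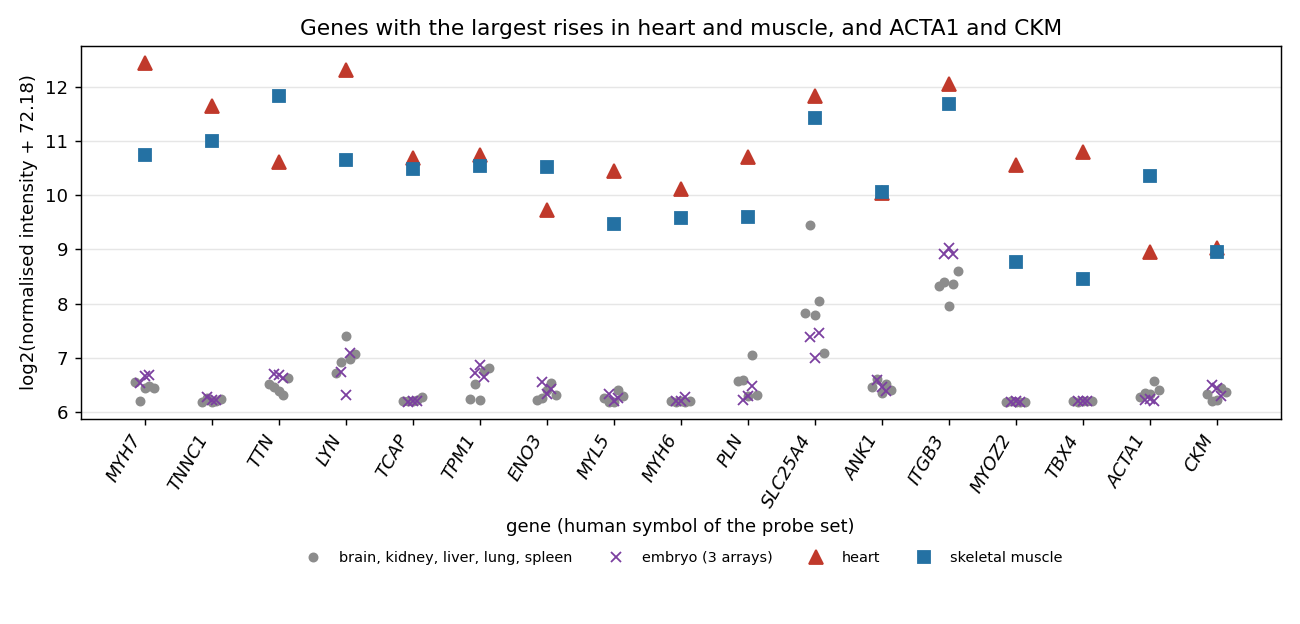
Normalised intensity of each array, as log2(intensity + 72.18), for the 15 genes with the largest rises and for ACTA1 and CKM. Triangles are heart, squares skeletal muscle, grey points the 5 other adult tissues and crosses the 3 embryo arrays, 1 array per point. Heart and muscle lie above all 5 other tissues for every gene shown, and the other tissues stay near the floor of the scale except for SLC25A4 and ITGB3.

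Thick filament genes gave the largest difference of all. It was 5.67, for a probe set annotated to both MYH7 and MYH6, with 6224 in heart, 2217 in muscle and at most 4.66 elsewhere. Among genes with a probe set of their own, MYH7 had the largest difference. MYH7, the slow and beta-cardiac myosin heavy chain, read 5534 in heart and 1638 in muscle, against 21.1 in brain, 1.21 in kidney, 14.5 in liver, 17.1 in lung and 14.0 in spleen. Neither side overlapped the other, and the log2 difference was 5.18 ± 0.40 (limma adjusted p = 0.000424). TTN, the giant elastic protein that spans from Z disc to M line, read 1509 in heart and 3608 in muscle, against 19.3 in brain, 15.2 in kidney, 11.0 in liver, 7.17 in lung and 26.0 in spleen. Here muscle exceeded heart, and the log2 difference was 4.78 ± 0.32 (limma adjusted p = 0.000184). MYL2, the regulatory light chain of ventricle and slow fibres, read 1103 in heart and 603 in muscle, against 13.9 in brain, 15.3 in kidney, 18.1 in liver, 21.4 in lung and 6.95 in spleen. For MYL2 the log2 difference was 3.35 ± 0.34 (limma adjusted p = 0.00154).

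MYH6, the alpha-cardiac myosin heavy chain, read 1037 in heart and 699 in muscle and at most 1 in the other 5 tissues. This gave MYH6 a log2 difference of 3.66 ± 0.37 (limma adjusted p = 0.00154). MYH4, the fast IIb chain, read 356 in heart and 365 in muscle and at most 5.03 elsewhere, and its log2 difference was 2.54 ± 0.47 (limma adjusted p = 0.0384). Myosin heavy chain genes are near-identical over long stretches, so readings of MYH6, MYH7, MYH4 and MYH13 on human probes are uncertain as to the bovine gene. The thick filament list had 16 genes with values, and 5 of the 7 tested were higher, against 1.46% of all tested genes. All 5 were tested through the striated arrays alone, so nothing is read from that count. Both striated arrays lay above all 5 others for 11 of the 16 and below for 0, with a median log2 difference of 2.05. The shares of all genes were 10.4% and 8.87%. Untested genes dim in heart were among the 11, such as MYL11 (20.2 in heart, 20.1 in kidney) and MYBPC2 (4.7 in heart, 4.05 in liver). MYOM1, an M-line protein, was among the exceptions at 121 in heart and 52.2 in muscle, within or below the 93.8 to 163 of the other tissues.

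Of 16 tested genes of the Z disc and linkage list, 8 were higher, against 1.46% of all tested genes. All of the 8 but CRYAB were tested through the striated arrays alone, so nothing is read from that count. TCAP, the titin cap protein telethonin, read 1581 in heart and 1357 in muscle, against 1.47 in brain, 1.21 in kidney, 1.25 in liver, 2 in lung and 4.94 in spleen. For TCAP the log2 difference was 4.37 ± 0.28 (limma adjusted p = 0.000168). MYOZ2, which ties calcineurin to alpha-actinin, read 1438 in heart and 363 in muscle and at most 1.33 in the other tissues. Heart was the brighter of the pair, and the log2 difference was 3.48 ± 0.52 (limma adjusted p = 0.014). ACTN2, the sarcomeric alpha-actinin that crosslinks actin at the Z disc, read 516 in heart and 682 in muscle. The other tissues gave 34.8 in brain, 0.18 in kidney, 1 in liver, 0.12 in lung and 0.27 in spleen. The log2 difference of ACTN2 was 3.09 ± 0.41 (limma adjusted p = 0.00699), and its other probe set gave 3.09 as well. SMPX, a small muscle protein, read 520.0 in heart and 394 in muscle and at most 2.52 elsewhere, with a log2 difference of 2.84 ± 0.45 (limma adjusted p = 0.018).

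Of the 25 genes of this list with values, 16 were tested, and 1 of these, TCAP, was higher in heart and in muscle each. The others that passed were CRYAB, a small heat shock protein that guards desmin and titin, at 2.80; MYOT, which binds alpha-actinin, at 2.78; CSRP3, the muscle LIM protein, at 2.76; and PDLIM5 at 2.68. Both striated arrays lay above all 5 others for 14 of the 25 and below for 1, CAV3, with a median log2 difference of 1.71. The shares of all genes were 10.4% and 8.87%. LDB3, another Z disc adaptor, depended on the probe set. Its brightest read 342 in heart, 382 in muscle and 171 to 435 elsewhere, whereas a second read 934 in heart and 606 in muscle against 30.2 to 82.7 and was higher by 2.76 ± 0.27 (limma adjusted p = 0.00154). DES, the muscle intermediate filament desmin, read 159 in heart and 125 in muscle, within or below the 150.4 to 270.5 of the other tissues. That probe set thus did not set striated muscle apart. DMD, dystrophin, read 719 in heart and 644 in muscle against 84.8 to 292, and its log2 difference of 1.72 ± 0.38 did not pass (limma adjusted p = 0.0707).

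In the calcium handling list 1 of 13 tested genes was higher, PLN, the phospholamban that restrains the sarcoplasmic calcium pump. PLN read 1614 in heart and 708 in muscle, against 22.7 in brain, 23.9 in kidney, 5.59 in liver, 60.3 in lung and 6.95 in spleen. The sides did not overlap, and the log2 difference was 3.61 ± 0.37 (limma adjusted p = 0.00155). ATP2A2, the pump that phospholamban acts on, read 2076 in heart and 1927 in muscle, but brain reached 1551 and kidney 818. Its log2 difference of 1.66 ± 0.55 did not pass the test (limma adjusted p = 0.21). Its other tested probe set went the other way, with 34.7 in heart, 25.4 in muscle and 70.1 to 275 elsewhere. HRC, a calcium-binding protein of the reticulum, read 472 in heart and 178 in muscle and at most 5.95 elsewhere, a log2 difference of 2.28 ± 0.54 that did not pass (limma adjusted p = 0.0828). Of the 19 genes of the list with values, both striated arrays lay above all 5 others for 4 and below for 0, with a median log2 difference of 0.75.

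Both creatine kinases of muscle read nearly alike in heart and skeletal muscle. CKMT2, the mitochondrial creatine kinase of sarcomeric muscle, read 853 in heart and 812 in muscle, against 27.1 in brain, 20.5 in kidney, 36.9 in liver, 13.5 in lung and 20.6 in spleen. The striated pair stood well above the rest, by 3.24 ± 0.27 (limma adjusted p = 0.000573). CKM, the cytosolic muscle creatine kinase, read 449.5 in heart and 425 in muscle, against 7.66 in brain, 1.46 in kidney, 2.06 in liver, 14.8 in lung and 10.4 in spleen. Heart and muscle were close to each other and far above the rest, and the log2 difference was 2.68 ± 0.42 (limma adjusted p = 0.0178). These were the 2 of 8 tested genes of the phosphocreatine, adenylate and glycogen list that were higher. Over its 14 genes with values the striated arrays lay above all 5 others for 7 and below for 1, with a median of 0.92. The rest of the list was less even, with a gap of heart minus muscle from -2.40 to 0.84 log2. AMPD1, the muscle AMP deaminase, read 18.6 in heart and 331 in muscle, and PYGM, the muscle glycogen phosphorylase, 69.7 and 326.

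All 3 glycolysis genes that passed were brighter in muscle than in heart. ENO3, the muscle enolase, read 780.3 in heart and 1399 in muscle, against 2.31 in brain, 4.05 in kidney, 12.2 in liver, 19.8 in lung and 7.45 in spleen, a log2 difference of 3.79 ± 0.34 (limma adjusted p = 0.000832). The brightest ENO1 probe set, named for the general enolase, read 952 in heart, 1611 in muscle and 45.6 to 229 elsewhere, a log2 difference of 3.07 ± 0.40 (limma adjusted p = 0.00677). Another ENO1 probe set read 164 and 172 against 103 to 204, so the ENO1 probe sets disagreed, and whether the brighter one also read bovine ENO3 was not tested. LDHA, the lactate dehydrogenase subunit common in fast muscle, read 557 in heart and 737 in muscle, against 190.4 in brain, 88.9 in kidney, 93.3 in liver, 202 in lung and 160.4 in spleen. Here the log2 difference was 1.74 ± 0.30 (limma adjusted p = 0.0297). PFKM, ALDOA and GAPDH had both striated arrays above all 5 others but did not pass by their brightest probe sets, at 2.19, 2.78 and 1.92 (limma adjusted p = 0.0566, 0.0603 and 0.0732). The other 2 GAPDH probe sets passed, at 1.76 and 1.69. In all, 3 of 14 tested glycolysis genes were higher, against 1.46% of all tested genes. Of the 3, ENO3 was tested through the striated arrays alone. Over the 15 with values the striated arrays lay above all 5 others for 9 and below for 0, with a median of 1.63. The shares of all genes were 10.4% and 8.87%.

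Genes of fuel oxidation were higher in fewer cases. LPL, the lipase that frees fatty acids from circulating lipoproteins, read 1226 in heart and 768 in muscle, against 158 in brain, 151 in kidney, 89.2 in liver, 158 in lung and 389 in spleen, a log2 difference of 2.09 ± 0.40 (limma adjusted p = 0.0452). It was the 1 of 17 genes of the myoglobin and fatty acid list that passed. Another LPL probe set, which was not tested, read 118 in heart and 115 in muscle, within the 76.1 to 144 of the other tissues. The oxidation enzymes of that list overlapped with kidney and liver, as in HADH, a step of fatty acid oxidation, with 554 in heart and 465 in muscle but 1261 in kidney. MB, the oxygen store myoglobin, read 544 in heart and 572 in muscle against 225 to 358, a small log2 difference of 0.90 ± 0.26 that did not pass (limma adjusted p = 0.151). PDHX, a component of the pyruvate dehydrogenase complex, read 1007 in heart and 881 in muscle, against 237 in brain, 275 in kidney, 135 in liver, 139 in lung and 109.9 in spleen. With a log2 difference of 2.06 ± 0.32 (limma adjusted p = 0.0179), it was the 1 of 22 tested genes of the pyruvate and citric acid cycle list that was higher.

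The log2 difference was above 0 for 20 of 21 tested complex I genes and for 10 of 14 of complexes III and IV. In complexes III and IV the lowest was -1.52. NDUFS3, a core subunit of complex I, read 972 in heart and 561 in muscle, against 231 in brain, 159.7 in kidney, 189.7 in liver, 204 in lung and 113 in spleen, a log2 difference of 1.71 ± 0.30 (limma adjusted p = 0.0328). NDUFB2, an accessory subunit, read 663 in heart and 372 in muscle, against 156 in brain, 124 in kidney, 166 in liver, 72.5 in lung and 92.8 in spleen, a log2 difference of 1.58 ± 0.30 (limma adjusted p = 0.0406). They were the 2 of 21 tested complex I genes that passed the test as higher, against 1.46% of all tested genes. Both striated arrays nevertheless lay above all 5 others for 18 of the 26 complex I genes with values and below for 0, against 10.4% and 8.87% of all genes. The median log2 difference of the list was 1.15. The summed intensity of the 26 genes was 19340 in heart and 9682 in muscle, against 3864 to 6266 in the other tissues. For complexes III and IV, 0 of 14 tested genes passed, while 8 of 19 with values had both striated arrays above and 1 below, with a median of 1.02. The nearest were UQCRB and COX5A, at 1.55 and 1.45 (limma adjusted p = 0.0568 for each), and another UQCRB probe set passed at 2.12.

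SLC25A4, the ADP/ATP carrier of muscle mitochondria, had the largest difference in energy metabolism outside glycolysis. It read 3608 in heart and 2677 in muscle, against 156 in brain, 632 in kidney, 149.9 in liver, 192 in lung and 64.2 in spleen. Kidney came nearest, and the log2 difference was 3.59 ± 0.55 (limma adjusted p = 0.0173). It was the 1 of 20 tested genes of the ATP synthase and exchange list that passed. Both striated arrays lay above all 5 others for 11 of those 20 and below for 1, SLC25A5, with a median of 0.94. Of 18 tested genes of muscle transcription and signalling, 0 were called. Over the 25 with values, both striated arrays lay above all 5 others for 7 and below for 1, with a median of 0.44. MYF6, a myogenic regulator, read 62.0 in heart and 1912 in muscle and 66.4 to 150.2 elsewhere, so it belonged to muscle alone.

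**Figure D2:**
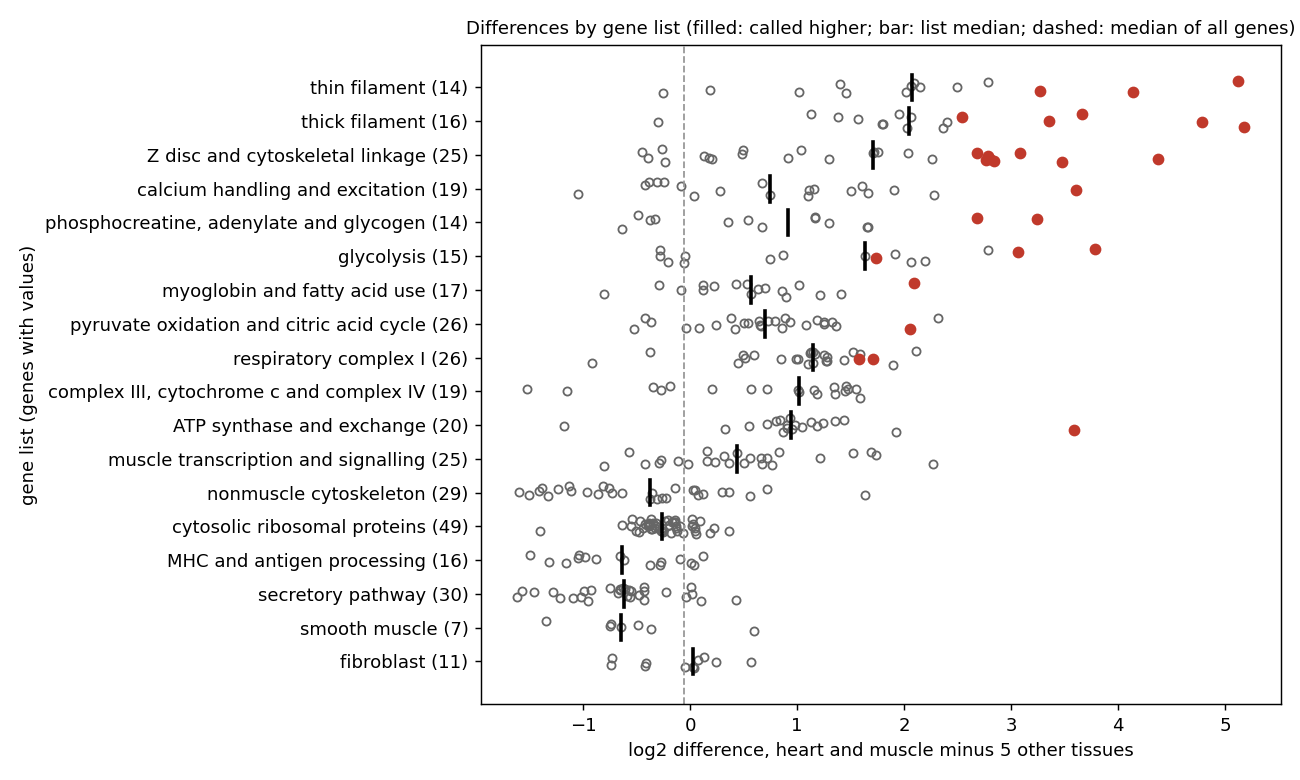
Log2 difference of every gene with values in each list, heart and muscle minus the 5 other tissues, 1 point per gene. Filled points passed the test, black bars are list medians and the dashed line is the median of all genes with values, -0.06. Thin and thick filament medians are 2.08 and 2.05, complex I genes lie mostly to the right with 2 filled points, and the nonmuscle, ribosomal, antigen processing and secretory lists hold no filled point.

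Many muscle proteins have a general counterpart encoded by another gene. The values of 9 such pairs are given as a description only, since the pairs were chosen after their values were seen. The muscle form had both striated arrays above all 5 others in each pair, against 10.4% of all genes, and nothing is read from that count. Of the general forms, 2 lay above, 3 below and 4 overlapped. ACTN4, the alpha-actinin of nonmuscle cells, was lower in striated muscle, with 254 in heart and 162 in muscle against 713 in brain, 596 in kidney, 719 in liver, 1141 in lung and 870.2 in spleen. Its log2 difference was -1.64 ± 0.32 (limma adjusted p = 0.046), opposite to ACTN2. SLC25A5, the ADP/ATP carrier of dividing and general tissue, read 34.6 in heart and 28.6 in muscle, against 233 in brain, 253 in kidney, 114 in liver, 112 in lung and 135 in spleen. It lay below every other tissue where SLC25A4 lay above, but its log2 difference of -1.17 ± 0.34 did not pass (limma adjusted p = 0.15). ACTB, cytoplasmic beta-actin, read 103 in heart and 132 in muscle against 248 to 985, a log2 difference of -1.50 ± 0.50 that did not pass (limma adjusted p = 0.207). The general enolase ENO1 and phosphofructokinase PFKP were the 2 above, at 3.07 and 1.63, of which ENO1 passed.

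**Figure D3:**
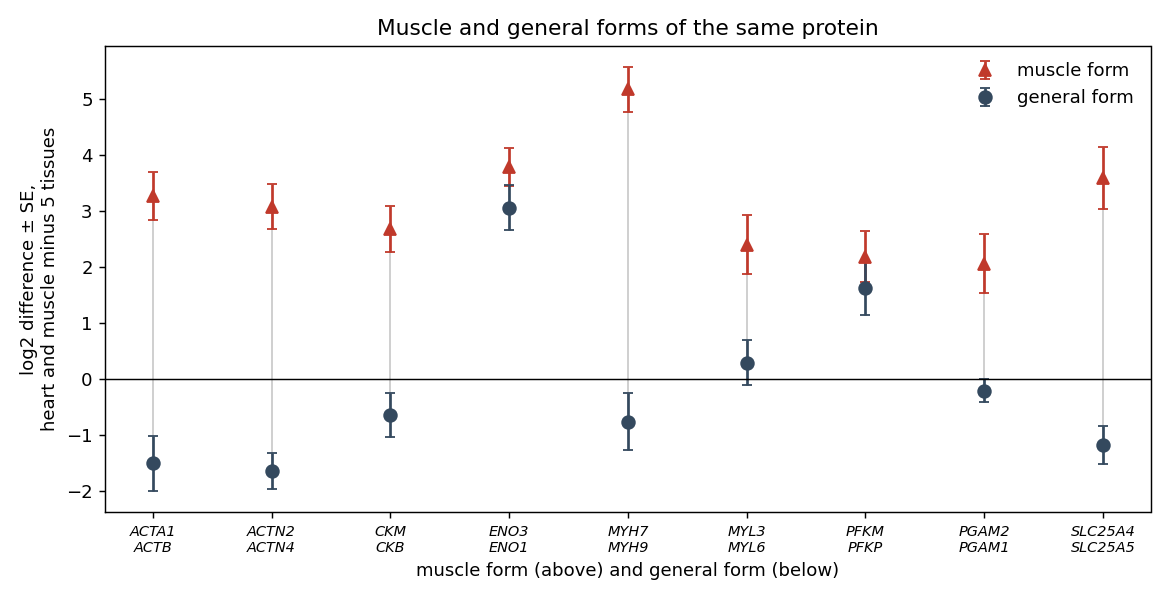
Log2 difference ± SE (limma fit, 2 against 5 arrays) of the muscle form and the general form of 9 proteins, pairs chosen after their values were seen and shown as a description. All 9 muscle forms lie above 0, while the general forms run from -1.64 for ACTN4 to 3.07 for ENO1.

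Heart and muscle were compared with each other by values alone, since each has 1 array. Among the 72 higher genes heart exceeded muscle for 49 and muscle exceeded heart for 23, and 57 lay within 1 log2 of each other. The median gap, heart minus muscle, was 0.24 and the range was -1.41 to 2.35. The smallest gaps were those of KMT2D, a histone H3 methyltransferase (327 and 325), ANK1 (982 and 999), NFE2L1, a stress-responsive transcription factor (1138 and 1117), and MYH4 (356 and 365). The largest gaps all favoured heart. TBX4, a T-box factor of limb development, read 1718 in heart and 278 in muscle and at most 1.06 in the other tissues. Its log2 difference between sides was 3.44 ± 0.60 (limma adjusted p = 0.0306). ATP2A3, a calcium pump best known from blood and endothelial cells, read 1219 in heart and 308 in muscle against 33.2 to 99.1, at 2.47 ± 0.44 (limma adjusted p = 0.0328). Its other probe set read 143 in heart and 27.7 in muscle against 155 to 397. MYH13, the extraocular myosin heavy chain, read 926 and 224 against 15.9 to 50.3, at 2.42 ± 0.48 (limma adjusted p = 0.0477). The fourth was MYOZ2, given above.

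Contractile genes were also listed by fibre type, and the difference between these lists was not tested. Of 9 slow fibre and ventricle genes with values, both striated arrays lay above all 5 others for 8. The same held for 5 of 9 heart-type and 7 of 13 fast skeletal genes, against 10.4% of all genes. Several of these were dim in 1 striated array, such as TNNC2 and MYL11 in heart and TNNI3 in muscle. Of the 9 slow fibre and ventricle genes, 7 were tested and 5 were higher, against 1.46% of all tested genes. MYH7, TNNC1, MYL2, MYOZ2 and CSRP3 were tested through the striated arrays alone, so nothing is read from that count. The median log2 difference of the 9 was 2.76. Fast skeletal genes were mostly bright in muscle alone, MYH4 being an exception. TNNC2, fast troponin C, read 7.01 in heart and 2157 in muscle and at most 5.25 elsewhere, and MYL11, a fast regulatory light chain, read 20.2 and 1829 with at most 20.1 elsewhere. MYH1 and MYH2, fast myosin heavy chains, read 2.78 and 5.36 in heart against 818 and 836 in muscle. Muscle exceeded heart for 13 of the 13 fast skeletal genes with values. Heart-type genes ran the other way, with heart the brighter for 8 of 9. TNNI3, cardiac troponin I, read 2773 in heart and 23.6 in muscle, and ACTC1, cardiac alpha-actin, read 1658 and 84.9. RYR2, the cardiac calcium release channel, read 1392 in heart, 0.18 in muscle and 396 in brain. NPPB, the heart hormone BNP, was the exception at 320 in heart, 461 in muscle and 259 to 329 elsewhere. TNNI1, the slow skeletal troponin I, departed from the slow genes with 0.50 in heart and 1241 in muscle.

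**Figure D4:**
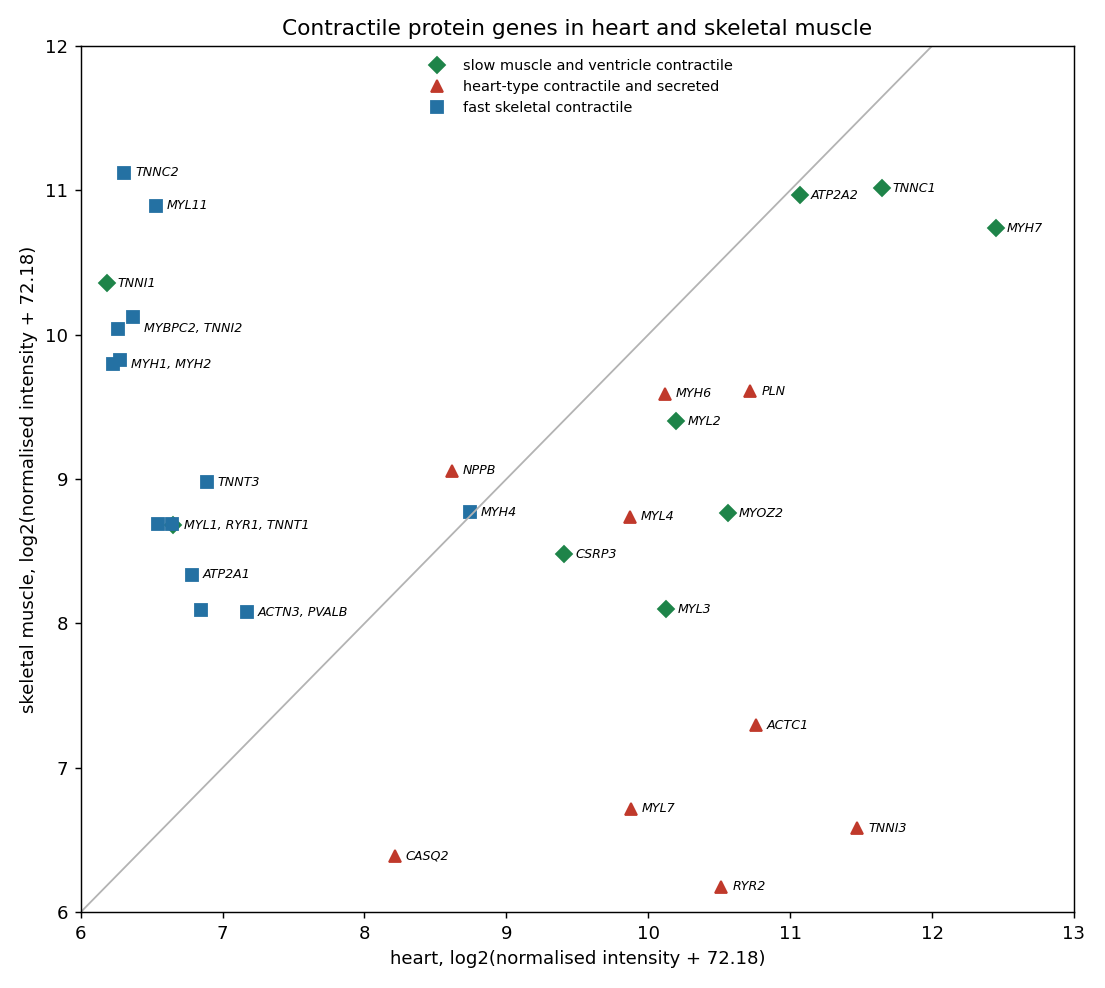
Heart (x axis) against skeletal muscle (y axis), as log2(normalised intensity + 72.18), for slow and ventricular genes (diamonds), heart-type genes (triangles) and fast skeletal genes (squares), 1 point per gene. The line marks equal readings. Fast skeletal genes other than MYH4 lie at the left, with at most 72.2 in heart, TNNI3, MYL7, ACTC1 and RYR2 lie low on the right, and MYH7, TNNC1 and ATP2A2 are bright in both.

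Energy genes were also set side by side. Heart exceeded muscle for 25 of 26 complex I genes, 18 of 19 genes of complexes III and IV, 17 of 20 of ATP synthase and exchange and 16 of 17 of the myoglobin and fatty acid list. Their median gaps were 0.83, 0.96, 0.53 and 0.61 log2. For glycolysis muscle was the brighter for 12 of 15, with a median gap of -0.69. ALDOA, the muscle and red cell aldolase, read 378 in heart and 2035 in muscle, and GAPDH 1312 and 4181. Over all genes with values heart exceeded muscle for 52.5%, with a median gap of 0.02. Ribosomal protein genes were also brighter in heart, for 43 of 49 with a median gap of 0.37. These are readings of 1 array each and have no test.

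Of the 80 gene names with any probe set called higher, 32 belonged to the muscle lists and 48 to no list. These are counts over any probe set, so the shares given above do not apply to them. The share of the muscle lists among all tested gene names was not counted, so nothing is read from the split. Several of the 48 are known from cells other than muscle. LYN, a Src family kinase of blood cells, read 5038 in heart and 1539 in muscle, against 32.5 in brain, 49.0 in kidney, 96.5 in liver, 54.0 in lung and 61.6 in spleen. Its log2 difference was 4.47 ± 0.42 (limma adjusted p = 0.00117). A second LYN probe set read 145 and 149.9 against 123 to 210.3, so only the brighter one set striated muscle apart. ITGB3, the platelet integrin beta chain, read 4181 in heart and 3228 in muscle, against 249 in brain, 267 in kidney, 176 in liver, 257 in lung and 318 in spleen. Its log2 difference was 3.54 ± 0.29 (limma adjusted p = 0.00055), whereas the 3 other ITGB3 probe sets gave -0.13, 0.10 and -0.16. FGR, another Src family kinase, read 1248 and 1768 against 131 to 185, at 2.74 ± 0.26 (limma adjusted p = 0.00117). Whether these probe sets read a different bovine transcript was not tested.

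ANK1, an ankyrin of red cells with a short form in the sarcoplasmic reticulum of muscle, was shared almost equally. It read 982 in heart and 999 in muscle, against 15.9 in brain, 25.02 in kidney, 9.23 in liver, 18.6 in lung and 12.6 in spleen, a log2 difference of 3.59 ± 0.27 (limma adjusted p = 0.00042). A second ANK1 probe set gave 3.27 and passed, and 4 more gave -0.15 to -0.22. MYL5, a myosin light chain outside the lists, read 1329 in heart and 634 in muscle and at most 12.03 elsewhere, at 3.70 ± 0.38 (limma adjusted p = 0.00165). Others, picked here after their values were seen, were PPARD, a nuclear receptor of fatty acid use (1246 and 1757 against 114 to 575, at 2.36), and PTN, a secreted growth factor (673 and 914 against 69.4 to 199.96, at 2.02). The other 3 PTN probe sets gave -0.37 to -0.81. The probe set named SUPT20H and DES read 318.6 and 407.5 against 81.8 to 140.3, at 1.21. Disagreement between probe sets was common. Of the 72 higher genes 17 had further tested probe sets, and a further one passed for 3 of them (TPM1, ANK1, ACTN2). Of the 29 further probe sets, 17 differed between striated muscle and the other tissues by less than 0.5 log2.

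Fewer genes were lower in striated muscle. The largest fall was that of LPGAT1, a lipid acyltransferase, which read 53.4 in heart and 4.95 in muscle, against 886 in brain, 243 in kidney, 761 in liver, 310.1 in lung and 823 in spleen. All 5 exceeded both striated arrays, and the log2 difference was -2.64 ± 0.50 (limma adjusted p = 0.0431). PPIA, the abundant prolyl isomerase cyclophilin A, read 402 in heart and 136 in muscle, against 2369 in brain, 1264 in kidney, 1117 in liver, 1509 in lung and 2580.1 in spleen. The fall of PPIA was -2.48 ± 0.45 (limma adjusted p = 0.0378). Another 4 probe sets named for PPIA and a pseudogene of it also passed, at -2.12 to -2.62, so 5 probe sets gave the same direction. LRRC8D, a subunit of volume-regulated anion channels, read 40.8 in heart and 24.1 in muscle against 288 to 906, at -2.38 ± 0.42 (limma adjusted p = 0.0328). EHD3, a protein of endosome recycling, read 20.8 and 0.82 against 148 to 483, at -2.09 ± 0.33 (limma adjusted p = 0.0195).

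The remaining falls were smaller. PUM2, an RNA-binding repressor of translation, read 43.7 in heart and 5.92 in muscle against 135 to 424, at -1.75, but its other probe set gave -0.30 with 176 and 71.5 against 118 to 237. CD70, a ligand of the tumour necrosis factor family, read 10.01 and 19.9 against 94.3 to 304, at -1.73. ELOVL5, which lengthens polyunsaturated fatty acids, read 5.05 and 29.2 against 123 to 292, at -1.57. ADAR, the enzyme that edits adenosine to inosine in RNA, read 205 and 137 against 504 to 619, at -1.37 ± 0.25 (limma adjusted p = 0.0385). In the other tissues its readings were close together.

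**Figure D5:**
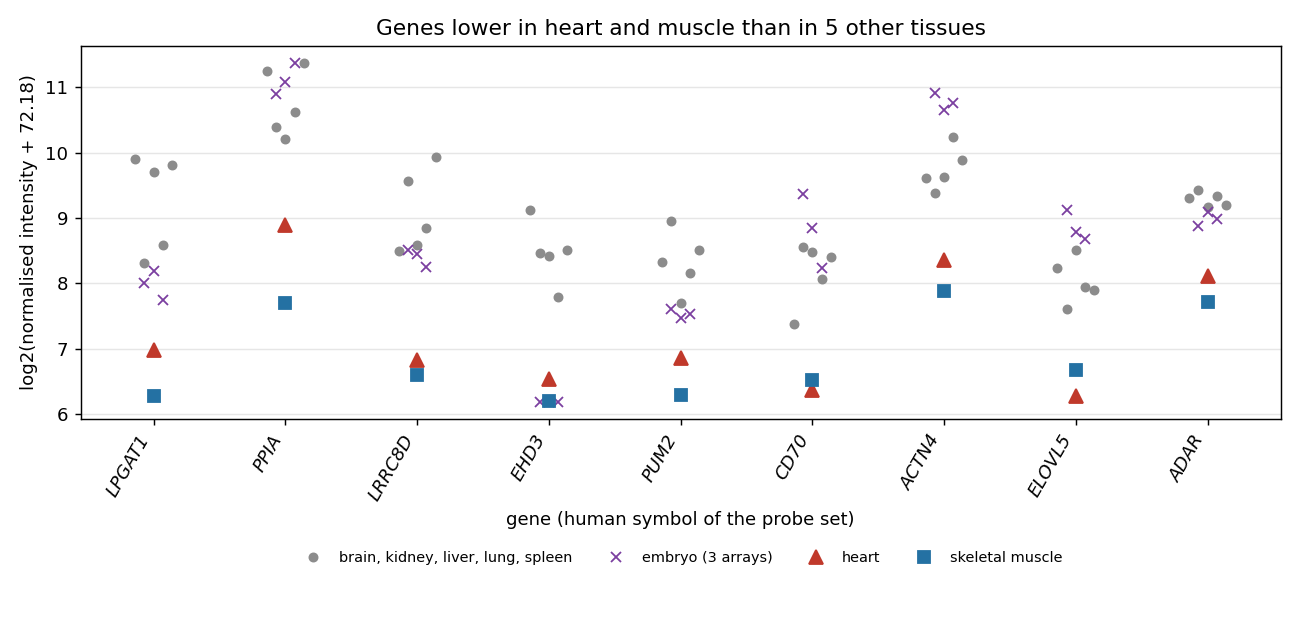
Normalised intensity of each array, as log2(intensity + 72.18), for the 9 genes lower in striated muscle, with symbols for heart (triangle), skeletal muscle (square), the 5 other adult tissues (grey points) and the 3 embryo arrays (crosses). Heart and muscle lie below all 5 other tissues for each gene, and the embryo arrays lie above both striated arrays for each gene except EHD3.

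The 4 lists of general cell functions had 0 calls by limma among 115 tested genes. Against 1.46% higher and 0.182% lower of all genes, that is near the background and is no result about them. Of 29 nonmuscle cytoskeleton genes with values, both striated arrays lay below all 5 others for 6 and above for 1, with a median of -0.37. CFL1, which severs actin filaments, read 79.3 in heart and 53.5 in muscle against 165.5 to 589, at -1.60 ± 0.39 (limma adjusted p = 0.0921). For the 30 secretory pathway genes with values the striated arrays lay below for 11 and above for 0, and their summed intensity was 5468 to 6300 in striated muscle and 8619 to 16719 elsewhere. The nearest to a call was SEC23B, a coat protein of vesicles leaving the endoplasmic reticulum, with 91.5 and 74.2 against 222 to 424 (limma adjusted p = 0.0651). Antigen processing genes overlapped in 16 of 16 cases, with a summed intensity of 1866 to 2427 in striated muscle and 1567 to 13544 elsewhere, spleen being the highest.

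Markers of other cells that dissected muscle could hold had 0 calls by limma among 34 tested genes of 8 lists, which is again near the background shares. Smooth muscle markers summed to 713 to 1497 on the striated arrays and 372 to 5441 on the others, over 7 of 9 listed genes with values. CNN1, a smooth muscle calponin, read 0.96 in heart and 1.01 in muscle, but the other 6 read 23.4 or more on both arrays. ACTA2, smooth muscle actin, read 386 in heart and 202 in muscle, and CALD1, caldesmon, 345 and 189. SMTN, smoothelin, read 316 and 136 against 58.2 to 199 elsewhere, so heart was the brightest array for it. MYLK, MYH11 and ACTG2 read 112, 173 and 165 in heart and 111, 23.4 and 50.2 in muscle. Fibroblast markers, 11 of 15, summed to 6452 to 6517 against 3988 to 11267. Endothelial markers, 4 of 12, summed to 527 to 561 against 390 to 1001, and leukocyte markers, 5 of 15, to 459 to 582 against 423 to 1305. Blood markers, 3 of 9, summed to 486 to 639 against 259 to 552. Adipocyte (4 of 7), nerve (3 of 8) and epithelial markers (4 of 12) summed to 433 to 529, 311 to 363 and 234 to 348, against 260 to 752, 170 to 547 and 384 to 1127. The part of these cells in the genes above was not tested.

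The embryo arrays lay outside the comparison, and their readings of the shared genes are given as a description, since these genes were selected as high in striated muscle. Of the 72 higher genes, 71 had all 3 embryo arrays below both striated arrays, against 31.2% of all tested genes. For 10 of the 72 all 3 embryo arrays lay above the 5 other tissues, against 8.87% of all tested genes. The median over the 72 genes was 756 in striated muscle, 39.6 in embryos and 34.5 in the other tissues. A control probe set for the middle of beta-actin, placed on the array by its maker, read 771.5 in heart and 607 in muscle and 16.9 to 374 in the other tissues. The control for the 3′ end of the same transcript read 121 and 149.7 against 94.8 to 543, so the actin controls disagreed in striated muscle.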

How the data were processed

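Total RNA of 7 adult bovine tissues and 3 embryo pools was hybridised to a human oligonucleotide array, 1 array per sample. The authors deposited 1 linear intensity per probe set and array. The sources used here do not say how the intensities were computed, and no scanner files were used. Of 22283 probe sets, 12064 were blank on every array and 33 of the 10219 with values were the maker's controls, leaving 10186. Through the platform annotation 8847 of these had 1 gene symbol, 479 several and 860 none. Array medians ran from 99.2 to 221 as deposited.

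The 10 arrays were quantile normalised together and log2(intensity + 72.18) was taken, where 72.18 is each array's 25th percentile, taken as its median over arrays. The test covered the 7074 probe sets that exceeded the array median on 2 or more of 7 adult arrays, and used limma 3.58.1 under R 4.3.3 (eBayes with trend and robust, two-sided, Benjamini-Hochberg threshold 0.05). Genes were read by their brightest probe set. Per-gene values in the text are normalised intensities, and figures were drawn with matplotlib 3.10.9. The fit was tested on simulated data.

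Named with full values were called genes whose sides did not overlap: the 15 largest rises, up to 12 falls (9 existed), up to 4 called genes per list, the 4 smallest and 4 largest gaps between heart and muscle, and TNNC1, ACTA1 and CKM. Other genes were picked after their values were seen. The members, gene lists and tests were chosen with earlier results of these data known. Alternatives changed the normalization, offset, filter, variance moderation, arrays and unit tested. No sequence or genome coordinate was used.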

Additional observations from a re-analysis of the deposited data

Results flagged for a closer look

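Among the 5 other tissues, 1 array stood apart from the remaining 4 for 4 of the 41 named genes, by Dixon's test at a critical value of 0.71. TCAP read 4.94 in spleen against 2 in the nearest tissue. MYOZ2 read 1.33 in kidney against 0.50. ACTN2 read 34.8 in brain, where the nearest tissue gave 1, although the other ACTN2 probe set read 1.33 in brain. ENO1 read 229 in liver against 79.7. Chance marks about 1 group in 20, and all 4 readings stayed below both striated arrays.

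The embryo arrays, which were left out of the main test, all lay above the 5 other adult tissues for 7 named genes. Their mean was 29.3 for TTN, 2.40 for MYH6 and 32.6 for KMT2D, each far below both striated arrays. It was 423 for ITGB3, 353 for PDHX, 405 for NDUFS3 and 219 for NDUFB2, also below both striated arrays. What these embryo readings arise from was not tested.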

How the results depend on the processing

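The reported counts were 99 higher and 15 lower probe sets and 19 genes higher in heart and in muscle each. With no offset they were 6, 2 and 0, and 75% of calls were higher in place of 86.8%. An offset 4 times larger gave 6 lower and 36 in both, with 120 higher. Without a filter on dim probe sets there were 6 lower and 42 in both, and with the filter at the 75th percentile 6 in both. Plain eBayes gave 162 higher and 42 in both. With the embryo arrays as a group of their own there were 264 higher, 78 lower and 42 in both, and these held all 99 and all 15. With 1 probe set per gene 9 were lower, fewer being tested. Without a model, 768 probe sets had both striated arrays above all 5 others and 702 below. Leaving out each array in turn gave 0 to 92 higher, 0 to 23 lower and 9 to 19 in both. The 0 and 1 higher came without muscle and without heart, where fewer probe sets passed the filter. With the same probe sets tested, an alternative chosen after seeing the data, there were 43 higher and 1 lower without heart and 55 higher and 0 lower without muscle. Where not stated, the cause was not tested. Values as deposited, a common median and normalization over the 7 adult arrays kept each count within 1.5 times.

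No named gene changed direction in 731 values under these alternatives, and 500 kept their side of the threshold. TTN, LYN and ITGB3 were called under all 15 alternatives that kept heart and muscle. ELOVL5 was called under 4 of 14, ACTN4 under 5 of 15, and CD70 and PUM2 under 6 of 15. The count in both cannot be had without heart or muscle. No paired analysis was possible because each tissue has 1 array and the labels number no replicates across tissues.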
